A study of Mus musculus with 20 samples.

Results

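A set of 9 ligand genes of the transforming growth factor β (TGF-β) superfamily was followed in mouse embryonic hearts in which Kmt2d, a histone H3 lysine 4 methyltransferase gene, was deleted by 1 of 3 Cre lines. They were Tgfb1, Tgfb2, Tgfb3, Bmp2, Bmp4, Bmp5, Bmp6, Bmp7 and Inhba, chosen by symbol from the deposited table, and they are 9 of its 33495 genes. RNA-seq had been performed on 20 libraries, 4 mutants and 4 controls for Mesp1Cre and 3 of each for Mef2cAHF::Cre and for Tnnt2::Cre. The questions asked of each gene were whether mutants differed from controls within a line, whether its level differed between stages, and whether it differed between parts of the heart.

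Ligands of this superfamily are secreted dimers that bind serine/threonine kinase receptors, which phosphorylate SMAD proteins. TGF-βs and activins act mainly through SMAD2 and SMAD3, and bone morphogenetic proteins (BMPs) mainly through SMAD1, SMAD5 and SMAD9. In the embryonic heart, myocardial BMP2 and TGF-β2 are known for the formation of endocardial cushions, and BMP4 for the outflow tract. BMP5, BMP6 and BMP7 form a subgroup of close relatives, and TGF-β1 and TGF-β3 are secreted in a latent form, as TGF-β2 is.

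All embryos were of strain C57BL/6 and carried the Cre of their line and 1 copy of the mTmG reporter. Controls were Cre; Kmt2d fl/+; mTmG/+ and mutants were Cre; Kmt2d fl/fl; mTmG/+, so that a floxed allele was also open to deletion in every control, which the labels call WT. Mesp1Cre acts in mesodermal precursors, and its libraries came from whole hearts at E9.0. Mef2cAHF::Cre acts in precursors of the anterior heart field, and its libraries came from right ventricle and outflow tract (RV and OFT) at E11.5. Tnnt2::Cre acts in cardiomyocytes, so other cells of these E11.5 whole hearts kept Kmt2d. The number of hearts in each library was not stated, and p-values measure the spread between these libraries only. As tissue was not sorted, fewer cells that express a gene and less RNA per cell cannot be told apart.

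The genotypes of the Mef2cAHF::Cre libraries are given in opposite ways. Sample titles, genotype labels and library names call 3 libraries mutant that the column names of the table call wild type, and the reverse for the other 3. They are named here the libraries labelled mutant and labelled control, after the titles, and the column names would reverse each sign given for this line. Kmt2d itself, listed under its older symbol Mll2, ranged from 150 to 163 CPM (counts scaled to a common library size) in Mesp1Cre controls and from 126 to 140 in mutants (log2 fold change −0.21, SE 0.07, FDR 0.0764). In Tnnt2::Cre it ranged from 126 to 167 CPM in controls and from 113 to 122 in mutants (−0.35, SE 0.12, FDR 0.327). In Mef2cAHF::Cre it ranged from 142 to 153 CPM in libraries labelled control and from 183 to 190 in those labelled mutant (0.32, SE 0.06, FDR 0.0359), which goes against the labels. The counts cover the whole gene, and the floxed part was not counted on its own.

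Libraries held between 21727258 and 45341870 counted reads, and those of Tnnt2::Cre at least 35379996. Summed CPM of 8 cardiomyocyte genes ranged from 25690 to 62650, whereas 8 pharyngeal endoderm genes summed to at most 33.1 CPM and 8 liver genes to at most 28.4 CPM. Blood content varied more, with 10 erythroid genes summing to between 1930 and 159500 CPM and 8 megakaryocyte and platelet genes to between 11.2 and 849 CPM. Of the 20 libraries, 10 were male by 4 Y-linked genes, including all 4 mutants but only 2 of 4 controls of Mesp1Cre, and 0 of 3 labelled mutants and 1 of 3 labelled controls of Mef2cAHF::Cre. In Tnnt2::Cre 1 of 3 mutants and 2 of 3 controls were male.

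The 3 genes that were higher in RV and OFT than in whole heart, Inhba, Tgfb2 and Bmp4, are shown with their promoters, since they moved together there. In mm9, Inhba lies on the plus strand at chr13:16103684-16119021, Tgfb2 on the minus strand at chr1:188447529-188529868 and Bmp4 on the minus strand at chr14:47003195-47010344. The others lie at chr7:26472574-26490095 (Tgfb1, plus strand), chr12:87397755-87419991 (Tgfb3, minus), chr2:133377895-133388621 (Bmp2, plus), chr9:75623171-75741611 (Bmp5, plus), chr13:38437802-38591947 (Bmp6, plus) and chr2:172693513-172765822 (Bmp7, minus). All 9 are protein-coding genes in GENCODE M1. The sequences are the 250 bases before the gene start from RefSeq (GRCm38.p6), 5′ to 3′ on the gene's strand, and cover chr13:16011601-16011850, chr1:186705990-186706239 and chr14:46390670-46390919. Capitals mark ACGTG, a form of the core of the hypoxia response element, searched on both strands. The other form, GCGTG, was neither searched nor marked, so unmarked windows may hold it.
Inhba: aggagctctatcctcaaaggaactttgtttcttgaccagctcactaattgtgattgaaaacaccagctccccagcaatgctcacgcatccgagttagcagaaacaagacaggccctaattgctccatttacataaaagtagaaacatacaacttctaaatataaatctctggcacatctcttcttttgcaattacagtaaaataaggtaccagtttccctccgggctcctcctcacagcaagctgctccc
Tgfb2: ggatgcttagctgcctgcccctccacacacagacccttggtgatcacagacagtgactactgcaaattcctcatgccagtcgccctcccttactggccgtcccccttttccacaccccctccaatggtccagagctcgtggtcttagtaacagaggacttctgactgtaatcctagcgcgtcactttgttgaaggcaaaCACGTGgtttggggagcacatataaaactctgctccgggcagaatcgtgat
Bmp4: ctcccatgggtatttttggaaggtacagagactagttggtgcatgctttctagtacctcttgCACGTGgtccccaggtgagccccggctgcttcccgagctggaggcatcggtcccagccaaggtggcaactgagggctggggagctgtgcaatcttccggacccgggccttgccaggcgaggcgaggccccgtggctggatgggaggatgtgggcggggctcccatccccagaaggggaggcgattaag
Tgfb2 and Bmp4 each held CACGTG, which reads as ACGTG on either strand, and Bmp6 held it as well, so that 3 of 6 members with a promoter sequence did. Of all 32851 promoter windows of the same length, 16.6% held ACGTG. The share that held the longer CACGTG was not counted, and binding of any factor to these sites was not tested. Inhba held 3 CpG dinucleotides and 43.2% G and C, Tgfb2 8 and 53.6%, and Bmp4 11 and 63.2%, against medians of 6 and 52.4% for all windows. The GATA motif AGATAA (9.99% of windows), the NKX2-5 motif TNAAGTG (10.1%) and the SMAD motif GTCTAGAC (0.167%) were found in none of the 6 members, and the T-box motif AGGTGT (11.8%) in Bmp6 alone. Promoters of Tgfb3, Bmp2 and Bmp7 were not analysed here.

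Levels were compared between genes as FPKM, which corrects for length. In E9.0 control hearts, Tgfb2 (34.0 ± 1.18 FPKM, s.d., n=4) and Bmp7 (32.5 ± 3.64) were the most abundant and overlapped between libraries. Bmp5 (22.4 ± 2.99), Bmp4 (18.2 ± 6.39) and Bmp2 (11.9 ± 2.74) followed, each overlapping its neighbour. Tgfb1 (2.95 ± 0.305), Bmp6 (2.74 ± 1.22) and Tgfb3 (1.78 ± 0.199) were low and overlapped in that order, and Inhba was last at 0.155 ± 0.0997 FPKM, below the lowest Tgfb3 library. Tgfb2 and Bmp7 made up 26.9% and 25.7% of the summed FPKM of the 9 genes.

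The order was different at E11.5. In Tnnt2::Cre control hearts Bmp7 led alone (28.0 ± 2.99 FPKM, n=3), above Tgfb2 (17.7 ± 0.640) and Bmp4 (15.2 ± 0.640), with no overlap between these 3. Bmp5 (6.92 ± 1.83), Inhba (5.09 ± 0.516), Bmp2 (4.84 ± 0.207) and Tgfb1 (4.48 ± 0.229) overlapped in that order, above Tgfb3 (3.25 ± 0.142) and Bmp6 (1.98 ± 0.581). In RV and OFT labelled control, Bmp4 (41.1 ± 8.01), Tgfb2 (36.3 ± 3.97), Inhba (31.7 ± 5.67) and Bmp7 (29.9 ± 3.72) formed an overlapping top group. The other 5 genes lay at 2.74 to 7.16 FPKM, from Bmp6 to Tgfb1. The libraries labelled mutant had the same 4 genes on top in the same order, at 38.2, 30.9, 27.4 and 26.2 FPKM.

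**Figure D1:**
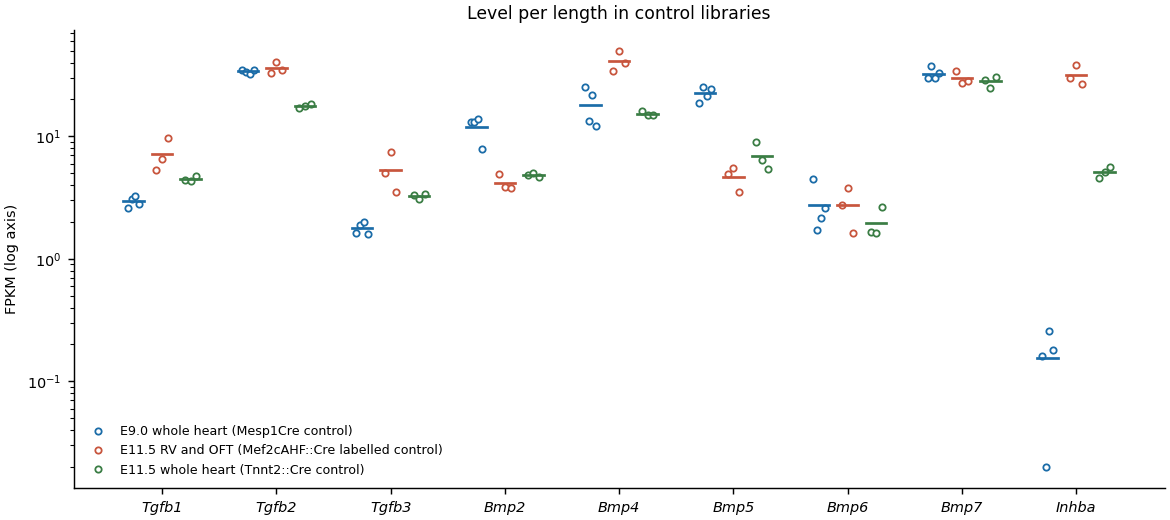
Level per length of each gene in control libraries, as FPKM on a log axis. Points are libraries and bars are means, for E9.0 whole heart (n=4), E11.5 RV and OFT labelled control (n=3) and E11.5 whole heart (n=3). Inhba spans 0.0199 FPKM in the lowest E9.0 library to 37.9 FPKM in the highest RV and OFT library, whereas Bmp7 lies between 24.8 and 37.6 FPKM throughout.

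Between stages, E11.5 whole hearts of Tnnt2::Cre controls were compared with E9.0 whole hearts of Mesp1Cre controls. Of the 9 genes, 6 passed the threshold of FDR below 0.05, against 39.6% of all 18391 genes tested. Of these, 3 were higher at E11.5 (21.7% of all genes), namely Inhba, Tgfb3 and Tgfb1, and 3 were lower (17.9%), namely Bmp5, Bmp2 and Tgfb2. The stages also differ in Cre line, and each line was sequenced as a group of its own, and these cannot be told apart.

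Inhba encodes the βA subunit, whose homodimer is activin A. At E9.0 it had 0.331, 0.0412, 0.514 and 0.366 CPM in the 4 controls, from 9, 1, 13 and 9 reads, and at E11.5 9.52, 10.9 and 12.5 CPM, from 405, 375 and 403 reads. Every E11.5 library was therefore above every E9.0 library, and Inhba was 34.3-fold higher (log2 5.10, SE 0.52, FDR 3.78e-07). The E9.0 level rested on at most 13 reads a library.

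Of the TGF-β genes, Tgfb2 had 160, 155, 142 and 158 CPM at E9.0 and 78.8, 83.6 and 90.5 CPM at E11.5, and was 1.83-fold lower (log2 −0.87, SE 0.12, FDR 9.48e-06). Tgfb3 had 5.49 to 6.69 CPM at E9.0 and 11.1 to 12.7 CPM at E11.5 (log2 0.95, SE 0.31, FDR 0.0207). Tgfb1 had 4.45 to 5.38 CPM at E9.0 and 7.57 to 8.75 CPM at E11.5 (log2 0.68, SE 0.24, FDR 0.0311). The libraries of the 2 stages did not overlap for any of the 3 genes. The call for Tgfb1 was lost on leaving out any of 5 of the 7 libraries (each Tnnt2::Cre control, and Mesp1Cre controls 1 and 4), with FDR up to 0.102, and that for Tgfb3 on leaving out Tnnt2::Cre control 3 (FDR 0.0631). With FPKM, Tgfb3 did not pass at either pseudocount (FDR 0.0642 and 0.0789), nor did Tgfb1 on log2(FPKM + 1) (0.0505).

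Of the BMP genes, Bmp5 had 42.4, 57.6, 46.5 and 54.0 CPM at E9.0 against 20.4, 15.0 and 13.1 CPM at E11.5. It was 3.09-fold lower at the later stage (log2 −1.63, SE 0.17, FDR 4.95e-07). Bmp2 had 49.0, 48.7, 49.5 and 28.9 CPM at E9.0 and 18.3, 19.4 and 18.7 CPM at E11.5, which was 2.34-fold lower (log2 −1.22, SE 0.15, FDR 3.78e-06), and even its lowest E9.0 library stood above all at E11.5. Bmp4 (log2 −0.18, 95% interval −0.73 to 0.37), Bmp6 (−0.40, −1.11 to 0.32) and Bmp7 (−0.14, −0.37 to 0.10) did not pass, and their libraries overlapped.

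Cell markers also differed between the stages. All 10 erythroid and 8 megakaryocyte and platelet genes were called higher at E11.5, with sums of 5446 to 18000 against 103500 to 159500 CPM and of 11.2 to 25.5 against 209 to 379 CPM. Of the markers, 7 of 8 epicardial genes were higher (sums of 54.0 to 96.4 against 253 to 303 CPM), as were 5 of 8 cushion mesenchyme genes, with 2 lower. In addition, 4 of 8 cardiomyocyte genes were lower and 1 higher, and 5 of 8 genes of the outflow tract and second heart field were lower and 1 higher. Their part in the results for the ligands was not tested.

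Between regions, the 6 Mef2cAHF::Cre libraries of RV and OFT were compared with the 6 Tnnt2::Cre whole hearts, both at E11.5, with each pair of genotypes averaged, so that either reading of the Mef2cAHF::Cre labels gives the same value. Here 4 of 9 genes passed, against 38.6% of all genes. Inhba, Bmp4 and Tgfb2 were higher in RV and OFT (17.4% of all genes) and Bmp7 was lower (21.2%). The region also differs in Cre line and in the group sequenced together, and these cannot be told apart. The Tnnt2::Cre controls enter the comparison of stages as well.

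Inhba had 49.7 to 65.3 CPM in the 6 RV and OFT libraries and 3.86 to 12.5 CPM in the whole hearts, and was 6.39-fold higher (log2 2.68, SE 0.29, FDR 5.27e-07). Bmp4 had 67.9 to 93.3 CPM in RV and OFT and 24.4 to 36.3 CPM in whole heart, 2.70-fold higher (log2 1.43, SE 0.20, FDR 1.20e-05). Tgfb2 had 125 to 156 CPM against 75.1 to 104 CPM (log2 0.70, SE 0.09, FDR 2.93e-06). For these 3 genes every RV and OFT library was above every whole heart. Bmp7 overlapped, at 96.9 to 129 against 108 to 161 CPM (log2 −0.28, SE 0.09, FDR 0.0132), and did not pass when FPKM were tested (log2 −0.17, FDR 0.114). Bmp2 (log2 −0.28, FDR 0.0573) and Bmp5 (−0.30, FDR 0.0620) did not pass, nor did Tgfb1 (−0.10), Tgfb3 (0.11) and Bmp6 (0.30), with FDR of 0.380 to 0.752.

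In the marker lists, 5 of 8 cushion mesenchyme genes were higher in RV and OFT, where the list summed to 3714 to 4042 CPM against 1362 to 1936 in whole heart, as were 5 of 8 genes of the outflow tract and second heart field (197 to 237 against 128 to 160 CPM), with 1 lower. By contrast, 5 of 8 cardiomyocyte genes were lower and 2 higher, and 9 of 10 erythroid genes were lower. The part of these cells in the higher Inhba, Bmp4 and Tgfb2 was not tested.

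**Figure D2:**
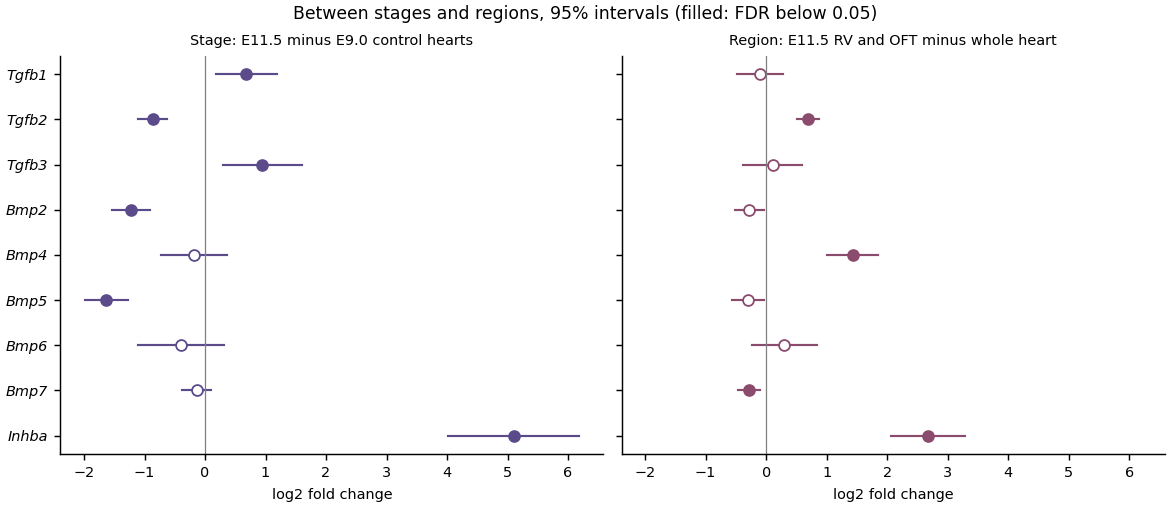
Log2 fold changes of the 9 genes with 95% intervals, between stages (left, E11.5 minus E9.0 control hearts) and between regions (right, RV and OFT minus whole heart at E11.5). Filled points passed FDR below 0.05, 6 on the left and 4 on the right. Inhba is the farthest to the right in each, at 5.10 and 2.68, and Tgfb2 lies on opposite sides, at −0.87 and 0.70.

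Mutants were next compared with controls within each line. By edgeR 0 of the 9 genes passed in Mesp1Cre, where 11.47% of 15883 genes did (6.17% higher and 5.29% lower), 0 in Mef2cAHF::Cre, where 2.85% of 16920 genes did (1.81% higher and 1.04% lower), and 0 in Tnnt2::Cre, where 0.293% of 17045 genes did (0.0763% higher and 0.217% lower). At an unadjusted p below 0.05 there were 3, 3 and 2 of the 9 genes, and 26.9%, 17.9% and 11.9% of all genes. DESeq2 called 3, 2 and 0 of the 9, and over all genes 2631 of 15883, 1103 of 16920 and 368 of 17045, more than edgeR did in each line. Library values of mutants and controls did not overlap for 1, 3 and 3 of the 9, against 18.1%, 23.9% and 16.9% of all genes. Median log2 fold changes of the 9 genes were 0.07, −0.06 and 0.11, and those of all genes were within 0.01 of 0.

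**Figure D3:**
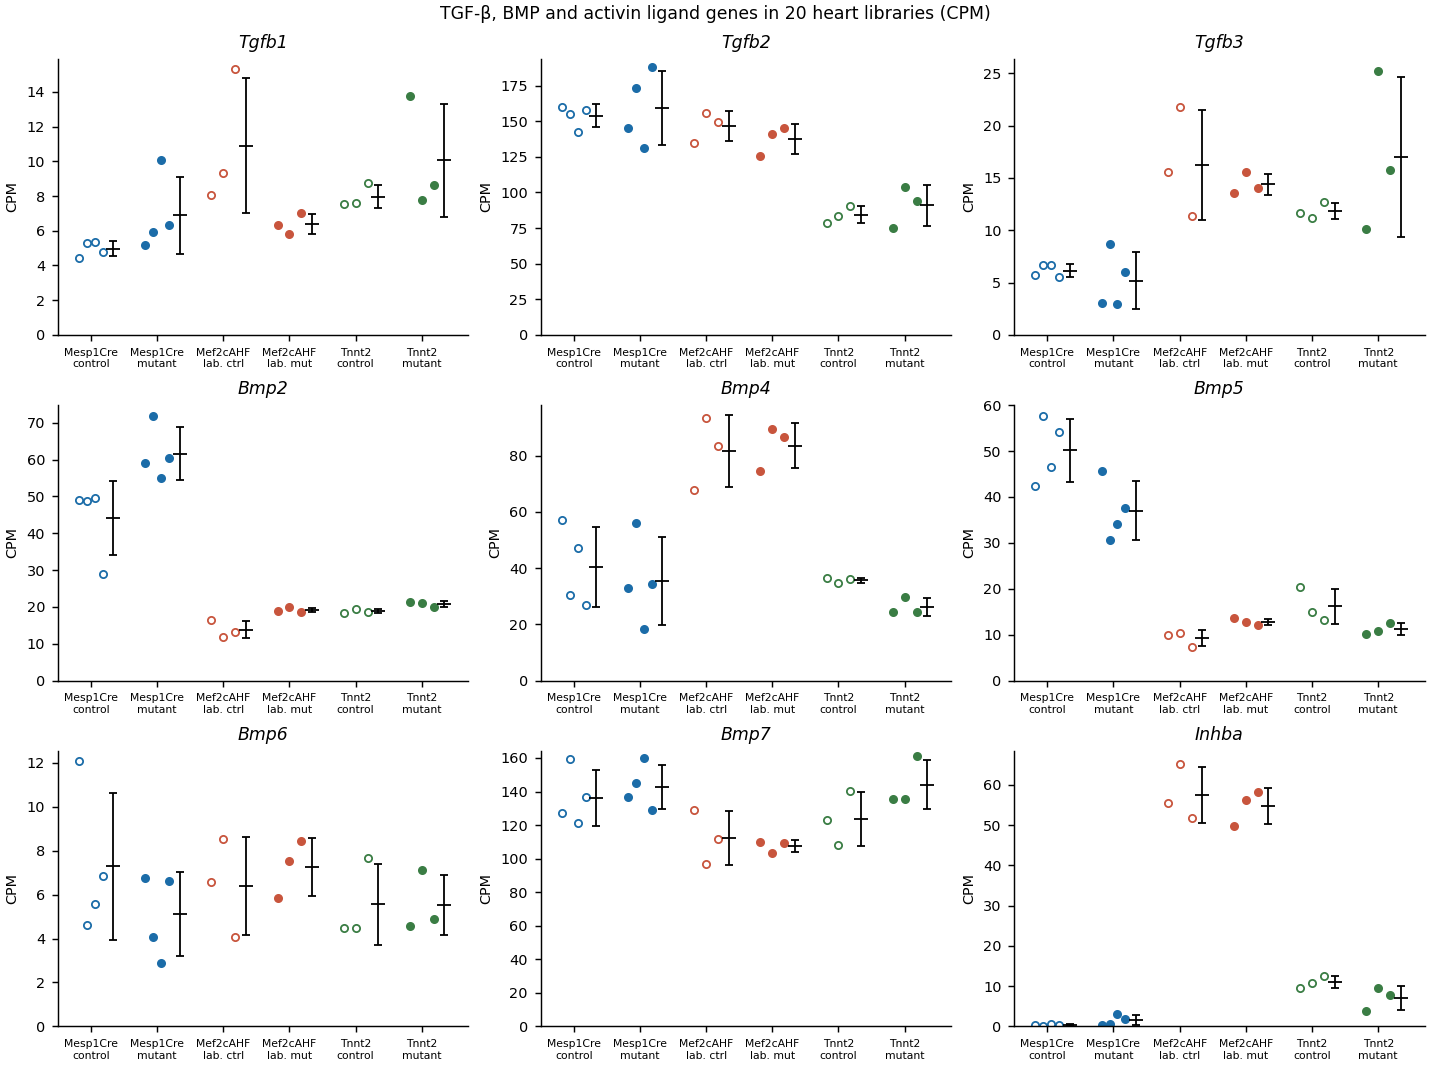
CPM of each gene in all 20 libraries, by group. Open points are control and filled points mutant libraries, labelled control and labelled mutant for Mef2cAHF::Cre, with mean and s.d. beside them (n=4 for Mesp1Cre, n=3 otherwise). All Mesp1Cre libraries lie above all E11.5 libraries for Bmp2 (28.9 to 71.8 against 11.96 to 21.4 CPM) and Bmp5 (30.7 to 57.6 against 7.37 to 20.4 CPM) and below them for Inhba (0.0412 to 3.07 against 3.86 to 65.3 CPM).

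In Mesp1Cre, Bmp2 had 49.0, 48.7, 49.5 and 28.9 CPM in controls and 59.1, 71.8, 55.0 and 60.3 CPM in mutants. Every mutant was above every control, and the log2 fold change was 0.50 (SE 0.16, 95% interval 0.16 to 0.85, FDR 0.0609). It passed by DESeq2 (FDR 0.0122), in the edgeR fit of all 20 libraries (0.0178), with a minimum of 10 counts in every library (0.0407) and with the codes shared by library names as a block (0.0424). It also passed in both FPKM fits (0.0334 and 0.0325), at log2 fold changes of 0.68 and 0.64. The median of all genes was itself raised in those fits, to 0.15 and 0.11. Bmp5 had 42.4, 57.6, 46.5 and 54.0 CPM in controls and 45.7, 30.7, 34.2 and 37.6 CPM in mutants, overlapping by mutant 1 only (log2 −0.42, SE 0.14, FDR 0.0706). It passed by DESeq2 (FDR 0.0243), in the fit of all 20 libraries (0.0453) and without mutant 1 (log2 −0.52, FDR 0.0372).

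Inhba had the largest log2 fold change of the 9 in this line. Controls had 0.331, 0.0412, 0.514 and 0.366 CPM, and mutants 0.422, 0.492, 3.07 and 1.94 CPM, from 10, 13, 72 and 50 reads. Mutants 3 and 4 stood above all controls, whereas mutants 1 and 2 lay among them. The log2 fold change was 2.24 (SE 0.78, 95% interval 0.56 to 3.92, FDR 0.0823), and it passed by DESeq2 (FDR 0.0287) and in the fit of all 20 libraries (0.0126). It was 1.61 (FDR 0.258) without mutant 3. Even mutant 3 was below the lowest E11.5 whole heart, which had 3.86 CPM.

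The other 6 genes in Mesp1Cre gave log2 fold changes of −0.50 for Bmp6, −0.22 for Tgfb3, −0.17 for Bmp4, 0.07 for Tgfb2, 0.09 for Bmp7 and 0.49 for Tgfb1, with FDR of 0.228 to 0.760. Intervals were narrow for Tgfb2 (−0.16 to 0.30) and Bmp7 (−0.13 to 0.30). They were wide for Bmp4 (−0.81 to 0.46), whose libraries ranged from 27.0 to 57.2 CPM in controls and from 18.3 to 56.1 CPM in mutants. Called marker genes in this line included 3 of 8 endothelial and endocardial and 3 of 7 megakaryocyte and platelet genes, all higher, and 4 of 10 erythroid genes, all lower. In addition, 1 of 8 cardiomyocyte and 1 of 8 epicardial genes were called higher. Lower were 1 of 8 genes of the outflow tract and second heart field and 1 of 3 macrophage genes. The sums of the platelet list were 11.2 to 25.5 CPM in controls and 49.6 to 223 CPM in mutants.

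In Mef2cAHF::Cre, Bmp2 had 18.9, 19.9 and 18.7 CPM in the libraries labelled mutant and 16.4, 11.96 and 13.3 CPM in those labelled control, without overlap (log2 0.47, SE 0.12, FDR 0.0803 by the labels). It passed by DESeq2 (FDR 0.0226), with a minimum of 1 count (0.0225) and without labelled control 1 (log2 0.60, FDR 0.0276). Bmp5 had 13.5, 12.7 and 12.2 CPM in libraries labelled mutant and 10.02, 10.4 and 7.37 CPM in those labelled control, again without overlap (0.46, SE 0.14, FDR 0.121). By the column names these values are −0.47 and −0.46.

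Tgfb1 lay the other way, at 6.32, 5.83 and 7.02 CPM in libraries labelled mutant and 8.07, 9.32 and 15.4 CPM in those labelled control, without overlap. Its log2 fold change was −0.77 by the labels, or 0.77 on the reading of the column names (SE 0.23, FDR 0.114). It passed by DESeq2 (FDR 0.0172) and with a minimum of 1 count (0.00786). Without labelled control 3 it was −0.44 by the labels (FDR 0.176). The remaining 6 genes lay between −0.18 for Tgfb3 and 0.18 for Bmp6, with FDR of 0.607 to 0.916. Among them, Inhba had 49.7, 56.3 and 58.3 CPM in libraries labelled mutant and 55.5, 65.3 and 51.7 CPM in those labelled control (−0.07, 95% interval −0.30 to 0.16).

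In Tnnt2::Cre, Bmp4 had 24.5, 29.8 and 24.4 CPM in mutants and 36.3, 34.5 and 36.0 CPM in controls. All mutants were below all controls, with a log2 fold change of −0.44 (SE 0.11, 95% interval −0.69 to −0.18, FDR 0.208). Bmp5 had 10.1, 10.8 and 12.7 CPM in mutants and 20.4, 15.0 and 13.1 CPM in controls, also without overlap (−0.53, SE 0.18, FDR 0.323). Bmp2 did not overlap either, at 19.96 to 21.4 against 18.3 to 19.4 CPM (0.15, SE 0.10, FDR 0.623). None of the 3 passed by DESeq2.

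Inhba had 3.86, 9.60 and 7.72 CPM in Tnnt2::Cre mutants and 9.52, 10.9 and 12.5 CPM in controls, so that mutant 2 overlapped control 1 (log2 −0.63, SE 0.29, FDR 0.446). Tgfb3 had 10.1, 25.2 and 15.8 CPM in mutants and 11.7, 11.1 and 12.7 CPM in controls (0.53, SE 0.28, FDR 0.506). Without mutant 1 it was 0.80 and passed (FDR 0.0382), but calls over all genes then rose as well, from 50 of 17045 to 896 of 17487. Tgfb1 (0.34), Bmp7 (0.22), Tgfb2 (0.11) and Bmp6 (0.00) did not pass, with FDR of 0.511 to 0.999. No marker gene was called in this line. Log2 fold changes were positive for 0 of 8 cushion mesenchyme genes (median −0.29), 0 of 10 erythroid genes (−1.045) and 8 of 8 epicardial genes (0.21). The cushion list summed to 1362, 1897 and 1815 CPM in mutants 1, 2 and 3 and to 1812 to 1936 CPM in controls. The part of these cells in the ligand values was not tested.

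**Figure D4:**
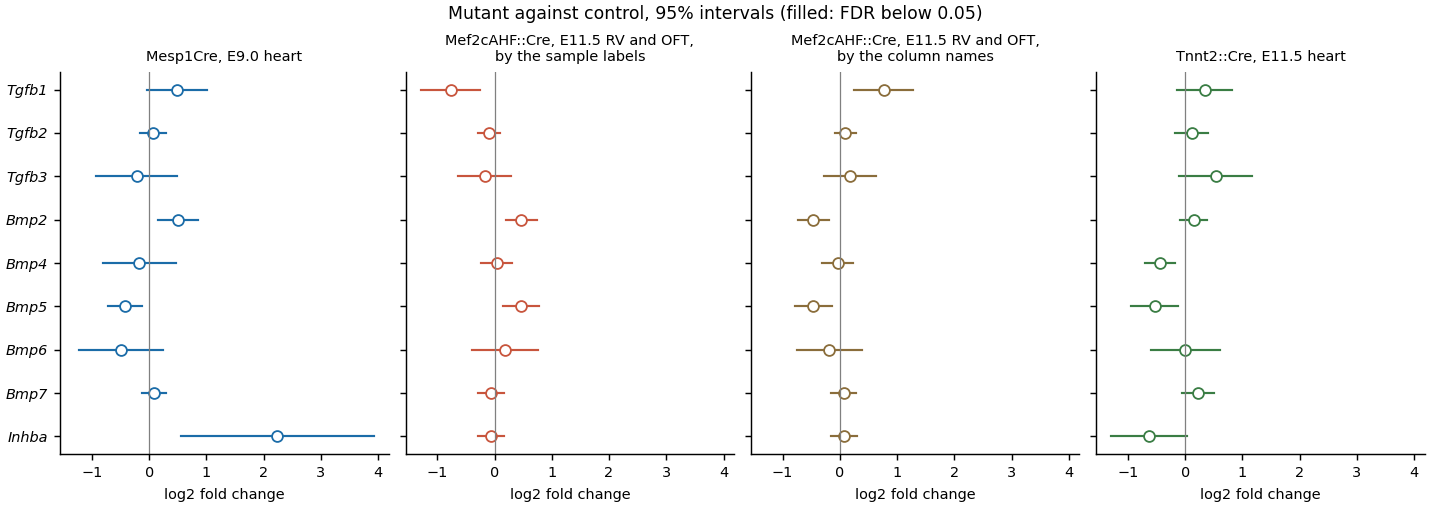
Log2 fold changes of mutants against controls with 95% intervals, for Mesp1Cre, Mef2cAHF::Cre by the sample labels, Mef2cAHF::Cre by the column names, and Tnnt2::Cre. All points are open because none passed FDR below 0.05. The 2 Mef2cAHF::Cre panels are mirror images, with Tgfb1 at −0.77 or 0.77, Bmp2 at 0.47 or −0.47 and Bmp5 at 0.46 or −0.46.

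The highest Tgfb1 library of each line was the highest in megakaryocyte and platelet genes as well, a lineage known to store TGF-β1. These were Tnnt2::Cre mutant 1 (13.8 CPM of Tgfb1, list sum 849 CPM, against 181 to 379 in the other 5 libraries), Mesp1Cre mutant 3 (10.1 CPM, 223 against 11.2 to 105 CPM) and Mef2cAHF::Cre labelled control 3 (15.4 CPM, 576 against 59.1 to 255 CPM). In Mef2cAHF::Cre 6 of the 8 genes of the list were called lower in the libraries labelled mutant, and in Mesp1Cre 3 of 7 were called higher in mutants. Below the highest library, Tgfb1 and the list ranked the libraries alike throughout Mef2cAHF::Cre, but not in the other lines. Mesp1Cre mutant 1 had a list sum of 105 CPM and 5.19 CPM of Tgfb1, and mutant 4 had 49.6 and 6.33 CPM. Tnnt2::Cre control 1 had 258 and 7.57 CPM, and mutant 3 had 186 and 8.61 CPM. Macrophage genes summed to only 5.40 to 58.2 CPM. The part of these cells in the Tgfb1 values was not tested.

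**Figure D5:**
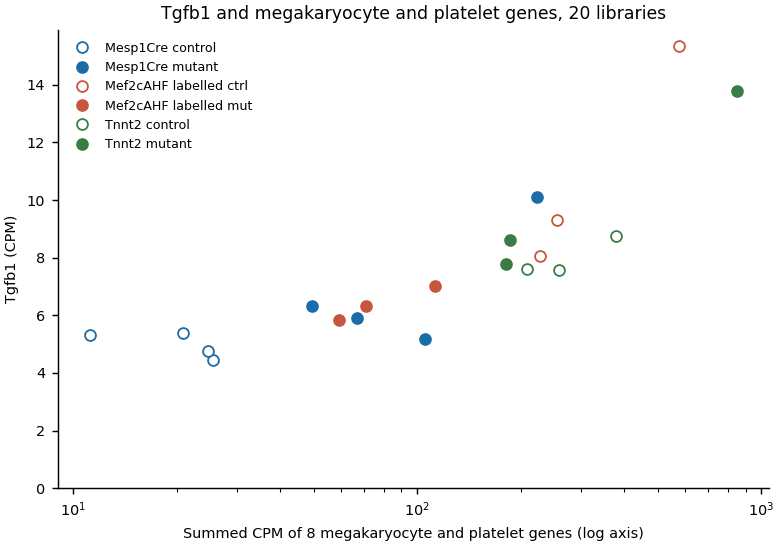
Tgfb1 (CPM) against the summed CPM of 8 megakaryocyte and platelet genes (log axis) in the 20 libraries. Open points are control and filled points mutant libraries. Mesp1Cre controls lie at the lower left (4.45 to 5.38 CPM of Tgfb1), and the 2 libraries with the largest list sums, 849 and 576 CPM, have the highest Tgfb1, 13.8 and 15.4 CPM.

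Changes were then compared between lines as an interaction in 1 fit of all 20 libraries, which uses the same libraries as the comparisons within lines. Inhba passed for Mesp1Cre minus Tnnt2::Cre, where 3.04% of all genes did, 1.23% higher as Inhba and 1.81% lower (log2 difference 2.84, SE 0.71, FDR 0.0366). Its log2 fold changes were 2.24 in Mesp1Cre and −0.63 in Tnnt2::Cre. The call was lost on leaving out any of 10 of the 14 libraries (all but Mesp1Cre control 3, mutants 1 and 2, and Tnnt2::Cre mutant 2), with FDR up to 0.0849, with sex as a covariate (FDR 0.101) and in a fit of these 4 groups alone (FDR 0.114).

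For Mef2cAHF::Cre minus Tnnt2::Cre, Bmp5 passed by the labels, as did 3.19% of all genes, 1.63% higher as Bmp5 and 1.56% lower (log2 difference 1.00, SE 0.25, FDR 0.0322). By the column names its difference was 0.07 (95% interval −0.45 to 0.60), and 0 of the 9 genes and 0% of all 18391 passed by edgeR. At an unadjusted p below 0.05 there was then 1 of the 9, Bmp2 (−0.61), and 2.57% of all genes. By DESeq2 0 of the 9 were called, and 6 of all 18391 genes. By the labels the call for Bmp5 was lost on leaving out any of 7 of the 12 libraries (the 3 labelled mutants, labelled control 3, Tnnt2::Cre controls 1 and 2 and mutant 2), with FDR up to 0.107, and with FPKM (log2 difference 0.73, FDR 0.122), where the median of all genes lay at −0.23.

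Other genes of the pathway were described from 8 lists that held 104 genes of the table. In Mesp1Cre, 6 were higher and 4 lower of the 78 tested, 12.8%, near the 11.47% of all genes. Among other ligands, Gdf11, a relative of myostatin, had 17.5 to 24.3 CPM in controls and 10.4 to 11.3 CPM in mutants and fell by 1.01 in log2 terms (SE 0.14, FDR 0.000638). Bmp10, a myocardial BMP of the trabeculae, had 8.25 to 11.3 CPM and 3.15 to 7.21 CPM and fell by 1.09 (SE 0.26, FDR 0.0184). The BMP receptor genes Bmpr1a (log2 0.39, FDR 0.0131) and Bmpr2 (0.34, FDR 0.0213) rose. So did Smad7 (0.69, FDR 0.0132) and Skil (0.51, FDR 0.00773), feedback inhibitors that are also listed as TGF-β targets, and Thbs1, an activator of latent TGF-β (1.08, FDR 0.00763). Smad7 is listed as a BMP target as well. Of 14 TGF-β target genes 2 were called higher and 0 lower, and 9 had positive log2 fold changes. Of 12 BMP target genes 1 was called higher and 0 lower, and 4 were positive. Over all genes 6.17% were called higher. Of the extracellular antagonists Twsg1 fell by 0.50 (FDR 0.0260) and Sost rose (1.63, FDR 0.0394). Tdgf1, the NODAL co-receptor, fell by 1.15 (FDR 0.0367). The call for Bmpr2 was lost without control 2 or 4 or mutant 1, 3 or 4 (FDR up to 0.0625), that for Sost without control 1, 3 or 4 or mutant 1, 3 or 4 (up to 0.134), that for Twsg1 without control 1 or 3 or mutant 1 or 3 (up to 0.0840) and that for Bmp10 without control 1 or mutant 1 or 4 (up to 0.0602). With sex as a covariate the calls for Bmpr1a (FDR 0.0518), Thbs1 (0.0563), Bmp10 (0.0580), Smad7 (0.0801), Sost (0.0850), Bmpr2 (0.0965) and Twsg1 (0.140) were lost as well, while Gdf11 and Skil passed in every alternative run. Twsg1 (FDR up to 0.154) and Sost (up to 0.0540) also did not pass with FPKM, nor Sost with either block (0.0891 with replicate numbers, 0.0589 with library-name codes).

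In both other lines 0 of the listed genes passed by edgeR, of 86 tested in Mef2cAHF::Cre and 87 in Tnnt2::Cre, against 2.85% and 0.293% of all genes. At an unadjusted p below 0.05 there were 19 and 16, against 17.9% and 11.9% of all genes. DESeq2 called 4 and 5 of the listed genes, and over all genes 1103 of 16920 and 368 of 17045. Bmp10 differed between Mesp1Cre and Tnnt2::Cre (log2 difference −1.92, SE 0.38, FDR 0.0111). Gdf11 differed between Mef2cAHF::Cre and Tnnt2::Cre by the labels (1.09, SE 0.20, FDR 0.00462), and by 0.04 by the column names.

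Between stages, 36 listed genes were higher and 16 lower at E11.5 of 92 tested, 56.5% against 39.6% of all genes. Latency and activation genes were called higher in 9 of 14 and lower in 0, led by Ltbp1, which binds latent TGF-β (log2 1.05, SE 0.08, FDR 1.91e-08), and Emilin1 (1.38, FDR 9.02e-08). TGF-β target genes were higher in 8 of 14 and lower in 2, among them Postn (4.28, SE 0.41, FDR 2.01e-07) and Tgfbi (2.74, SE 0.23, FDR 4.03e-08), both also expressed by cushion mesenchyme. Postn and Snai2 of this list, and Msx1 of the BMP target genes, are also in the cushion mesenchyme marker list, so these counts share genes. Of the intracellular inhibitors Pmepa1 was higher (1.82, FDR 3.52e-07) and Fkbp1a lower (−0.73, FDR 8.66e-06). Of the extracellular antagonists, 6 of 15 were higher and 1 lower, the higher ones including Dcn, which binds TGF-β (31.8 to 38.1 CPM against 0.0406 to 2.02 CPM, FDR 3.49e-07), and Twsg1 (0.80, FDR 6.93e-06).

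BMP target genes were split, with 3 higher and 4 lower of 12. The lower ones included Msx2 (log2 −1.61, SE 0.19, FDR 1.57e-06) and Id2 (−0.91, FDR 0.000261). Receptors were higher in 3 and lower in 6 of 15. Tgfbr2 was higher (1.11, FDR 5.35e-05) and Tdgf1 lower, at 21.1 to 30.1 CPM in E9.0 controls and 0.0290 to 0.118 CPM at E11.5 (FDR 4.62e-09). Of the SMAD genes 1 of 6 passed, Smad4, the common mediator SMAD (−0.53, FDR 0.000323). Other ligands were higher in 7 and lower in 1 of 13, among the higher Mstn (4.39, SE 0.61, FDR 2.72e-05) and Gdf6 (2.91, SE 0.50, FDR 0.000122). Both were low in E9.0 controls, so that the size of these changes is uncertain. Mstn had 0 to 0.673 CPM there and 3.48 to 6.62 CPM at E11.5, and Gdf6 0.0412 to 3.88 and 11.6 to 14.4 CPM. Between regions 34 listed genes were higher in RV and OFT and 10 lower, 47.8% against 38.6% of all genes. These included 7 higher and 2 lower of 10 intracellular inhibitors and 8 higher and 1 lower of 14 latency and activation genes.

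The genes most like each ligand were named by Pearson's r of log2 CPM over the 20 libraries, as a description, because the libraries share stage, tissue and line. Nearest to Inhba was Tgfbi (r=0.972), nearest to Bmp5 was Rassf5 (0.966), nearest to Bmp2 were Sphkap (0.962) and Gata5 (0.956), and nearest to Tgfb2 were SNORD113, Wnk3 and Grb10 (0.943 to 0.944), of which SNORD113 names a family of small nucleolar RNAs whose reads may be shared between copies. Nearest to Tgfb1 were Btk (0.942), Plek (0.920) and Gp1ba (0.916), genes of blood cells, of which Gp1ba encodes a platelet receptor subunit. Nearest to Tgfb3 was Rhou (0.938), nearest to Bmp4 were Zfp423 (0.913) and Gli2 (0.904), and nearest to Bmp7 was Atp2a2 (0.866), the calcium pump gene of cardiomyocytes. Bmp6 had no gene above 0.741 (Ss18). Bmp4, Bmp5 and Bmp6 overlap exons of Gm15217, Gm16662 and Txndc5 on the opposite strand, and since strand was not stated for the counting, reads of these pairs cannot be told apart.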

How the data were processed

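RNA-seq of 20 libraries was analysed from the deposited table of 33495 genes. Per the labels, RNA was amplified before library preparation (NuGEN Ovation), whereas the paper names a TruSeq kit, and the instruments named differ too. The authors aligned reads to mm9 (TopHat2 2.0.8b in the submitters' processing notes), assigned them with featureCounts, strand not stated, and deposited a raw count per gene and library. An FPKM of each gene and library, made by the authors with USeq and deposited in the same table, equals the count over gene length and library total, to within a relative 2.1e-07. The variance-corrected log2 columns were not used, and 0 columns could not be matched to a sample. A protocol text gives E11.5 for all samples, while the labels give E9.0 for Mesp1Cre, which was followed. Starts in the table lie 1 base below GENCODE M1 for 77.5% of 31672 genes, and 1 was added.

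Counts were fitted with edgeR 4.0.16 (R 4.3.3, TMM, filterByExpr, quasi-likelihood F test), within each line for mutants against controls, and over 6 groups of all 20 libraries for stages, regions and interactions. All 9 genes passed the filter in each fit. FDR is Benjamini-Hochberg over all genes tested. SE is the log2 fold change over the square root of F. CPM are after TMM over all libraries. Counting error is at least that of the reads given, and intervals cover the spread between libraries. The edgeR fits were also run on simulated counts with the same spread for every gene, which does not test the calls made in these libraries. Alternatives were DESeq2 1.42.0, its size factors, other filters (at least 1 count, or at least 10 in every library), limma 3.58.1 on log2(FPKM + 0.1) and log2(FPKM + 1), sex as a covariate, hemoglobin genes left out, a block of replicate numbers or of codes shared by library names, other sets of libraries in the fit, and each library left out.

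The members and gene lists were chosen with earlier results of these data known. Named genes are the 9 ligands, Kmt2d, the 2 genes of each pathway list with the lowest FDR past 0.05 in each line and between stages, and the 3 genes with the highest r to each ligand among those with a mean log2 CPM of at least 1. The other genes with values, Tdgf1 in Mesp1Cre and Bmp10 and Gdf11 between lines, were chosen after their values were seen.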

Additional observations from a re-analysis of the deposited data

Results flagged for a closer look

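In all, 3 values of the ligands stood out. Bmp2 in Mesp1Cre control 4 was 28.9 CPM, far below the other 3 controls at 48.7 to 49.5 CPM relative to the spread of the group. This was 1 of 18 groups of 4 libraries tested, and chance gives such a library in about 1 in 20 groups. Without it the log2 fold change of Bmp2 in Mesp1Cre was 0.34 (FDR 0.0915), in place of 0.50.

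The change of Inhba differed between Mesp1Cre and Tnnt2::Cre by a log2 value of 2.84 in a test of the difference itself. Reads of Inhba numbered 1 to 13 in the 4 Mesp1Cre controls. The change of Bmp5 differed between Mef2cAHF::Cre and Tnnt2::Cre by 1.00 by the sample labels, and by 0.07 by the column names.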

How the results depend on the processing

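Of the 72 log2 fold changes of the 9 ligands, 1371 alternative values were computed. In 1262 the direction and the side of the threshold were as reported, 34 no longer passed, 25 newly passed and 50 had the other sign, in each case for a reported value of at most 0.35 in size. The cause was not tested. The block of codes shared by Mesp1Cre library names, whose meaning is not stated, was chosen after seeing the data.

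The number of ligands called in Mesp1Cre, 0 as reported, was 3 by DESeq2 and 3 in a fit of all 20 libraries, 1 with a minimum of 10 counts in every library (8 ligands were then tested), 1 in each FPKM fit, 1 with the code block (Bmp2, log2 0.53, FDR 0.0424), and 0 to 1 with a library left out. In Mef2cAHF::Cre it was 2 by DESeq2, 2 with a minimum of 1 count, and 0 to 1 with a library left out. In Tnnt2::Cre it was 0 to 1 with a library left out. For Mesp1Cre minus Tnnt2::Cre, 1 as reported, it was 0 with a minimum of 10 counts, a filter that Inhba did not pass, so that it was not tested, and 0 in both FPKM fits, with sex as a covariate and in a fit of the groups compared only, and 0 to 1 with a library left out. For Mef2cAHF::Cre minus Tnnt2::Cre by the labels it was 2 by DESeq2 and 0 to 1 with a library left out. Between stages it was 4 to 6 and between regions 4 to 5 with a library left out. Deviations of same-numbered libraries from their group means correlated weakly (r −0.0339 to 0.177, the best match being the own number for 5 of 10). With so few libraries this cannot tell whether they were paired. With the replicate number as a block 0 ligands were called in each line (Bmp2 in Mesp1Cre 0.53, FDR 0.056).

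Signs changed in the FPKM fits for Bmp4 in Mef2cAHF::Cre (−0.090 and −0.088), Tgfb1 between regions (0.001 and 0.008), Tgfb2 in Mesp1Cre minus Tnnt2::Cre (0.003 with a pseudocount of 1), Bmp6 in Mef2cAHF::Cre minus Tnnt2::Cre by the labels (−0.035 and −0.034) and Tgfb2 in the same difference by the column names (0.015 and 0.018). With sex as a covariate they changed for Tgfb3 (0.094) and Inhba (0.032) in Mef2cAHF::Cre, and for Bmp6 in Tnnt2::Cre with DESeq2 size factors (−0.003), by DESeq2 (−0.003) and in the fit of all libraries (−0.004).

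With a library left out, ranges that crossed 0 were, in Mesp1Cre, −0.009 to 0.161 for Tgfb2 and −0.477 to 0.049 for Bmp4. In Mef2cAHF::Cre they were −0.373 to 0.098 for Tgfb3, −0.080 to 0.150 for Bmp4, −0.052 to 0.451 for Bmp6, −0.157 to 0.046 for Bmp7 and −0.139 to 0.036 for Inhba. In Tnnt2::Cre the range was −0.226 to 0.296 for Bmp6, between stages −0.333 to 0.034 for Bmp4, and between regions −0.251 to 0.045 for Tgfb1 and −0.030 to 0.302 for Tgfb3. For Mesp1Cre minus Tnnt2::Cre they were −0.112 to 0.426 for Tgfb1, −0.177 to 0.049 for Tgfb2, −0.064 to 0.467 for Bmp4 and −0.105 to 0.228 for Bmp5. For Mef2cAHF::Cre minus Tnnt2::Cre the range by the labels was −0.115 to 0.451 for Bmp6, and by the column names −0.131 to 0.094 for Tgfb2, −0.618 to 0.048 for Tgfb3, −0.130 to 0.209 for Bmp5 and −0.480 to 0.054 for Bmp6.

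Counts over all genes moved more. In Mesp1Cre 1821 genes were called as reported, 2631 by DESeq2, 899 with sex as a covariate, 3593 in the fit of all libraries and 1052 to 2161 with a library left out. In Mef2cAHF::Cre these were 482, 1103 by DESeq2, 1311 with a minimum of 1 count, 291 and 253 in the FPKM fits, 129 in the fit of all libraries and 75 to 662 with a library left out. In Tnnt2::Cre they were 50, 368, 120, 22 and 19, 82 and 4 to 896 in the same order, and 17 with sex and 28 with the replicate block. For Mesp1Cre minus Tnnt2::Cre 559 genes were called, 1242 by DESeq2, 324 and 368 in the FPKM fits, 189 with sex, 187 in a fit of the groups compared and 167 to 1037 with a library left out. For Mef2cAHF::Cre minus Tnnt2::Cre by the labels 586 were called, 1035 by DESeq2, 1375 and 1519 in the FPKM fits, 1084 in a fit of the groups compared and 295 to 1031 with a library left out. The FPKM fits, which have no TMM scaling, moved the median of all genes, to 0.15 in Mesp1Cre, −0.13 in Mef2cAHF::Cre, 0.11 in Tnnt2::Cre, 0.11 between regions and −0.23 in Mef2cAHF::Cre minus Tnnt2::Cre by the labels with a pseudocount of 0.1, and a minimum of 1 count moved it to 0.19 between regions. Depth limits Inhba at E9.0, with 1 to 13 reads in a control library.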
